A study of Mus musculus with 6 samples.

Results

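Aquaporins were measured as 10 listed genes, Aqp1 to Aqp9 and Aqp11, among 19751 genes named on the array. They were read by 15 probes of 39429, found by matching the array's own transcript accessions to RefSeq. The family was chosen by a measured value, the low signal of Aqp5 in the knockout, with results of this data set known. That gene is therefore described below with no p-value, and its limma calls are given only as a description. The other members entered by name. RNA came from the whole testis of 6 C57BL/6J males at 10 weeks of age, 3 labelled TAp73 KO and 3 labelled TAp73 WT, with 1 single-colour Agilent array per mouse. TAp73 is the form of the p73 transcription factor that carries the transactivation domain, and p73 belongs to the p53 family. All 6 mice shared strain, sex and age. The deleted exons, and whether the wild type mice were littermates, are not given in the sources used here, and p-values measure only the spread between these mice.

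Aquaporins are membrane proteins that assemble as tetramers in which every subunit has its own pore. The classical members pass water and little else, the aquaglyceroporins also pass glycerol and urea, and a distant branch that includes Aqp11 lies mostly inside the cell. In the male tract they are known for the movement of tubule fluid, for the loss of cell volume as spermatids shed their cytoplasm, and for the osmotic response of sperm. Aqp3 has been described as a gene that responds to p73 in cultured cells.

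The quality of the arrays touched these genes in 3 ways. The scanner files and the authors' value table carry opposite genotype labels for the same arrays, with correlations of 0.831 to 0.986 between each scanner file and a table column of the other genotype. The scanner file labels were used, and under them all 3 tested Trp73 probes were lower in the knockout, with differences of -6.01, -3.21 and -0.99 log2 units; the first of these probes was well above background on 1 knockout array. Under the table's own labels every direction below turns round. Knockout replicate 1 stood apart from the other arrays, with a score of -66.2 on the first principal component where theirs were -4.91 to 30.8. Slide 1 held knockout replicates 1 and 2 and wild type replicates 1 and 3, and slide 2 held the other pair. Markers of the labelled tissue were present, since all 9 spermatid, 11 Sertoli cell and 7 tested Leydig cell markers were well above background on all 6 arrays. A whole testis is a mixture, so fewer cells of a type and less RNA per cell cannot be told apart.

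Of the 15 aquaporin probes, 13 were well above background on all 6 arrays, and these covered 9 genes. The exceptions were both probes of Aqp6. Values below are processed signals, linear brightness after background subtraction, followed by differences between group means of log2 signal scaled to each array's 75th percentile. A difference was called at an adjusted p under 0.05 in limma, with adjustment over all 31801 tested probes. Among the 13 tested aquaporin probes 4 were lower and 0 were higher in the knockout, where 2.88% of all tested probes were called, 2.64% lower and 0.248% higher. The 4 were the probe pairs of Aqp5 and Aqp8. Because the Aqp5 pair led to the choice of the family, nothing is read from this count. Before adjustment limma gave p under 0.05 to 4 lower and 2 higher aquaporin probes, against 10.9% and 12.3% of all tested probes. After scaling the groups did not overlap for 6 of the 13, with 4 lower and 2 higher, where 31.7% of all tested probes did not overlap. The median difference was -0.08 over the 13 probes and 0.06 over all tested probes. Both Aqp5 probes were among the lower ones in each of these counts and entered the median. Nothing is therefore read from these values either.

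**Figure D1:**
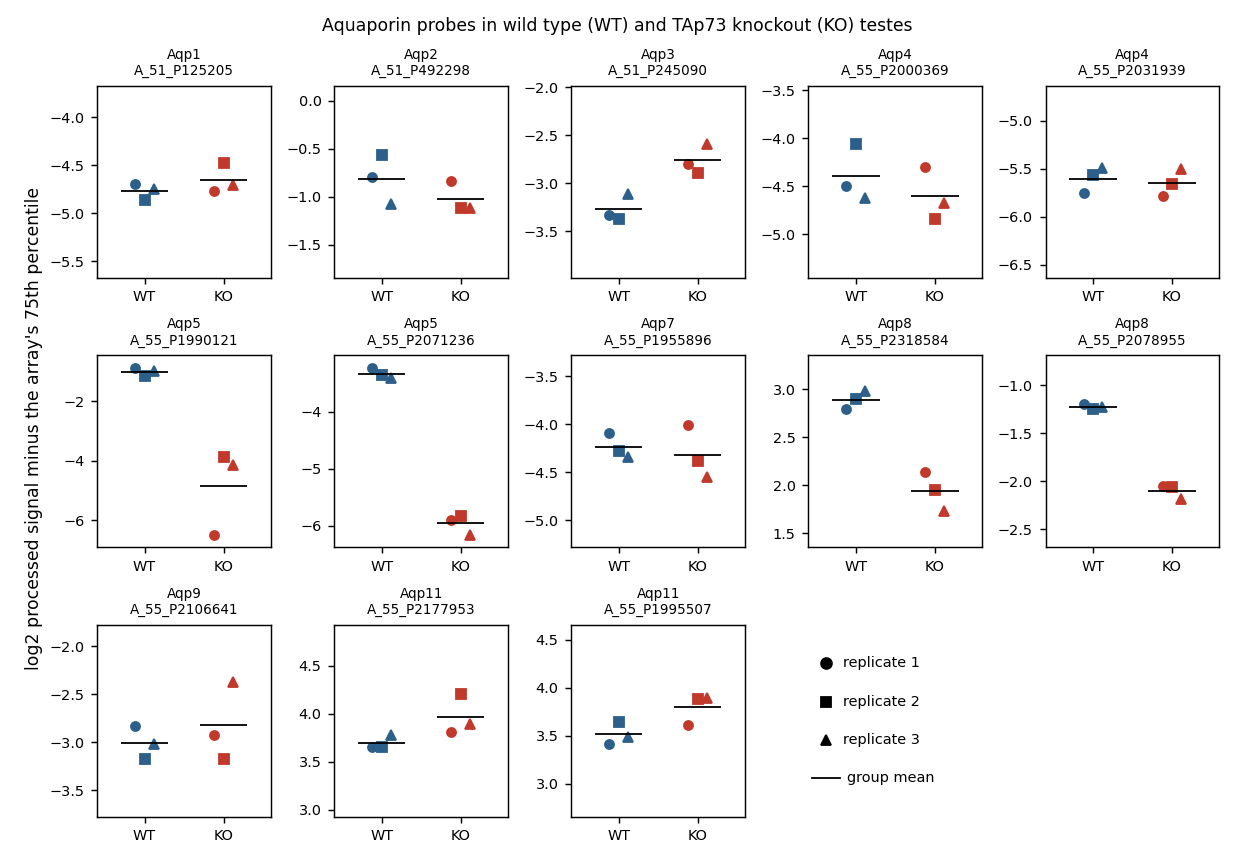
Log2 processed signal minus the array's 75th percentile for the 13 aquaporin probes well above background, in 3 wild type (WT, blue) and 3 TAp73 knockout (KO, red) testes. Each point is 1 array and the line is the group mean. The probes of Aqp5 and Aqp8 are lower in every knockout array than in any wild type array, and each panel has its own vertical scale.

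Aqp5 is the water channel of the apical membrane of salivary, lacrimal and airway epithelia. Its probe A_55_P1990121 read 3081, 2335 and 2691 in replicates 1 to 3 of the wild type and 57.9, 280.2 and 249 in those of the knockout. The groups were far apart, and knockout replicate 1 was much lower than the other knockouts. The second probe, A_55_P2071236, read 605, 505 and 508 in wild type and 86.8, 72.5 and 61.2 in the knockouts. Here the 3 knockouts lay close together. The differences were -3.82 (SE 0.67, n = 3 against 3) and -2.63 (SE 0.11, n = 3 against 3) log2 units, or 14.1-fold and 6.17-fold lower. They ranked 4 and 23 from the lowest of all 31801 tested probes, a rank given as a description of the gene that was chosen for it.

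The Aqp5 probes parted in 1 array. Against the wild type mean, A_55_P1990121 stood at -5.46 log2 units in knockout replicate 1 and at -2.87 and -3.12 in replicates 2 and 3. For A_55_P2071236 the same differences were -2.56, -2.50 and -2.82. Leaving out knockout replicate 1 brought the probes together, at -2.995 and -2.66. The arrays of slide 1 alone gave -4.23 and -2.54, and the 2 arrays of slide 2 gave -2.99 and -2.80. Knockout replicate 1 also had more such probes than any other array, since 409 of 31618 complete probes (1.29%) lay at least 2 log2 units below the mean of the other arrays of its group, against 67 and 26 for the other knockouts and 12 to 79 for the wild types. The origin of these low values was not tested.

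Normexp background correction, run on median spot and background signals with an offset of 50, moved both Aqp5 differences most. They became -2.47 for A_55_P1990121 and -1.14 for A_55_P2071236, and which of these changes moved them was not tested. Over all 16 alternatives the differences stayed below 0, from -4.29 to -2.47 and from -2.80 to -1.14.

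On the chromosome Aqp5 lies between Aqp2 and Aqp6, its nearest protein-coding neighbours in RefSeq on chromosome 15. The 250 bases before the annotated starts of Aqp5 and Aqp2 are shown to compare the gene that was low with the neighbour that was not called. They are from RefSeq on build GRCm38.p6, at chr15:99590778-99591027 and chr15:99578806-99579055, both on the + strand and 5′ to 3′. Capitals mark GGGCGG on either strand in Aqp5 and a p53 half-site in Aqp2.
Aqp5: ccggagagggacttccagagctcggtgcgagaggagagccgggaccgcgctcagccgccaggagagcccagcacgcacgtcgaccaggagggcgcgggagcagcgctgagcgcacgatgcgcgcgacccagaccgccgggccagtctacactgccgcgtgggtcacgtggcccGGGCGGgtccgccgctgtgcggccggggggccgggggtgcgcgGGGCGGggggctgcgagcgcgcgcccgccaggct
Aqp2: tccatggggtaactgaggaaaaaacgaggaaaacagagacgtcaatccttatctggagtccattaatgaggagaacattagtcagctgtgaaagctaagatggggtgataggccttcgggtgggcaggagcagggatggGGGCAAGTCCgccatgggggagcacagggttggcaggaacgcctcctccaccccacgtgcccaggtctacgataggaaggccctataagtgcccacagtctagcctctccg
The Aqp5 window held 2 copies of GGGCGG, a motif found in 32.7% of all 32851 promoter windows of this length. It held no p53 half-site and no TATAAA, searched on both strands. The Aqp2 window held 1 p53 half-site, which 7.13% of all windows hold, and neither GGGCGG nor TATAAA. Of the 9 aquaporin genes with a window, 1 held a half-site. A match describes letters and is no evidence of binding.

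Of the neighbours of Aqp5, Aqp2 was not called and Aqp6 was not tested. Aqp2, the vasopressin-regulated channel of the kidney collecting duct, read 3286, 3497 and 2575 in wild type and 2880, 1905 and 2016 in the knockouts. The scaled groups overlapped, with a difference of -0.22 (SE 0.15, 95% interval -0.58 to 0.15, adjusted p = 0.407 in limma). Aqp6, a channel of intracellular vesicles that can pass anions, was near background. Its probe A_55_P2182950 read 11.7, 16.0 and 19.1 in wild type and 23.5, 18.8 and 12.1 in the knockouts, and it was well above background on 1 knockout array. Its probe A_55_P2182955 read 3.87 to 12.2 and was nowhere well above background, so no fold is given for Aqp6.

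Aqp8 fell in the knockout on both of its probes. It passes water and, in other tissues, hydrogen peroxide and ammonia, and it is found in the testis of rodents. Probe A_55_P2318584 read 39660.1, 38603 and 42806 in wild type and 22702, 16061 and 14523 in the knockouts. Probe A_55_P2078955 read 2489.8, 2181 and 2312 in wild type and 1249.8, 989.8 and 964.8 in the knockouts. Every knockout array was lower than every wild type array on both probes, and no Aqp8 spot was saturated. Among all tested probes 13.1% had every knockout array below every wild type array. Log2 differences were -0.95 (SE 0.12, adjusted p = 0.0186 in limma) and -0.87 (SE 0.07, adjusted p = 0.00584 in limma), or 1.93-fold and 1.83-fold lower.

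The 3 knockouts lay -0.76, -0.94 and -1.16 from the wild type mean on Aqp8 probe A_55_P2318584 and -0.82, -0.84 and -0.96 on A_55_P2078955, with replicate 1 the nearest to wild type on both. Knockout replicate 1, lowest by far on one Aqp5 probe, was thus no low outlier for Aqp8. The difference was -0.84 on both probes within slide 1, where the call was lost (adjusted p = 0.283 and 0.204 in limma), and -1.17 and -0.93 between the arrays of slide 2. With normexp correction the values were -0.996 and -0.70 (adjusted p = 0.399 and 0.537 in limma). Probe A_55_P2318584 also lost its call without knockout replicate 2 (adjusted p = 0.0826), knockout replicate 3 (0.0579), wild type replicate 2 (0.0995) or wild type replicate 3 (0.0737), while A_55_P2078955 was called with each of the 6 arrays left out in turn, with adjusted p-values of 0.0191 to 0.0407 in limma.

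The window before the Aqp8 start is shown because both Aqp8 probes, like those of Aqp5, were lower in the knockout. It is chr7:123462044-123462293 on the + strand of GRCm38.p6, from RefSeq, 5′ to 3′, with no capitals because no searched motif was found.
Aqp8: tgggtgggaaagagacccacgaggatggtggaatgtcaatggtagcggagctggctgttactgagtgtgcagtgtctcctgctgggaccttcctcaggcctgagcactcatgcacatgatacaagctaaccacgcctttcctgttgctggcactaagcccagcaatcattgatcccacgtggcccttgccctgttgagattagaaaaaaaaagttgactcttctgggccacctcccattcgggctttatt
It held no p53 half-site, GGGCGG or TATAAA on either strand, so the Aqp5 and Aqp8 windows shared none of the 3 motifs searched.

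**Figure D2:**
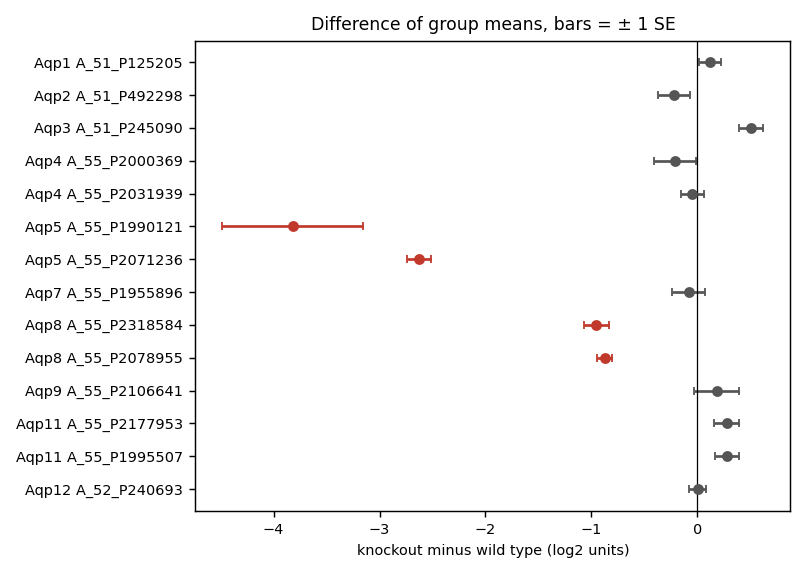
Difference between knockout and wild type (log2 units, horizontal axis) for the 13 tested aquaporin probes and the Aqp12 probe. Points are differences of group means over 3 arrays each and bars are 1 standard error, with Aqp5 and Aqp8 in red. Aqp5 lies at -3.82 and -2.63 and Aqp8 at -0.95 and -0.87, while the other probes lie between -0.22 and 0.51.

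The aquaglyceroporins Aqp3, Aqp7 and Aqp9 pass glycerol as well as water, and 0 of their 3 probes were called by limma, although Aqp3 had an unadjusted p of 0.00392. Aqp3, known from the basolateral membrane of epithelia and from skin, read 565, 500.3 and 629 in wild type and 744, 557 and 724 in the knockouts. Before scaling the groups overlapped. After scaling every knockout was above every wild type, which holds upwards for 18.6% of all tested probes. The difference was 0.51 (SE 0.11, 95% interval 0.23 to 0.79, adjusted p = 0.0777 in limma), and it lay between 0.38 and 0.78 over the 16 alternatives. The 0.78 was that of the slide 2 pair, which had no test. In none of the 15 alternatives with a test was Aqp3 called (adjusted p = 0.058 to 0.537 in limma).

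Aqp7, the glycerol channel of fat cells and late spermatids, is the neighbour of Aqp3 on chromosome 4, which also carries Trp73. It read 335, 267 and 268 in wild type and 321, 198 and 186 in the knockouts. The scaled groups overlapped, with a difference of -0.08 (SE 0.16, 95% interval -0.46 to 0.30, adjusted p = 0.771 in limma). Aqp9, the glycerol channel of liver and a channel of the efferent ducts and epididymis, read 801, 572 and 669 in wild type and 681, 457 and 844 in the knockouts. Knockout replicate 3 was the highest and replicate 2 the lowest of all 6 arrays before scaling. The difference was 0.18 (SE 0.22, 95% interval -0.34 to 0.71, adjusted p = 0.614 in limma), and without knockout replicate 3 it was -0.04.

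Aqp1 and Aqp4, channels that pass water alone, did not pass the test. Aqp1, the channel of red cells, capillaries and efferent duct epithelium, read 219.8, 177 and 201 in wild type and 189, 186 and 168 in the knockouts. The groups overlapped, with a difference of 0.12 (SE 0.10, 95% interval -0.13 to 0.37, adjusted p = 0.492 in limma). Aqp4, known from astrocyte end feet, read 252, 310.3 and 219 in wild type and 262, 144 and 171 in the knockouts on probe A_55_P2000369. On probe A_55_P2031939 it read 105, 109 and 120.5 in wild type and 93.8, 81.6 and 96.2 in the knockouts. Both pairs of groups overlapped after scaling, with differences of -0.21 (SE 0.20, adjusted p = 0.528 in limma) and -0.05 (SE 0.11, adjusted p = 0.811 in limma).

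Aqp11, a member of the endoplasmic reticulum that is needed in kidney tubules and is abundant in testis, was at the limit of the scanner. Probe A_55_P2177953 read 71400.0, 65312 and 74304 in wild type and 72549, 76373 and 64979 in the knockouts, and was saturated on 2 of 3 arrays of each group. Probe A_55_P1995507 read 60686, 64769 and 60720.3 in wild type and 63011, 60918 and 65198 in the knockouts, and was saturated on 3 of 3 wild type and 2 of 3 knockout arrays. Signals of both probes overlapped before scaling, and after it those of A_55_P2177953 did not. The scaled differences were 0.28 on each (adjusted p = 0.227 and 0.207 in limma), close to the 0.26 by which the scaling itself raised the knockout, since the 75th percentile was that much lower there. Under quantile normalization they were -0.00064 and 0.05. The range of these probes was exhausted, so no fold is given for Aqp11.

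The remaining family members on the array were Mip, the lens aquaporin, and Aqp12, a member of pancreatic acinar cells. Mip read 3.58 to 10.8 and was nowhere well above background. Aqp12 read 219, 211 and 193 in wild type and 199, 163 and 163 in the knockouts, which overlapped after scaling, with a difference of 0.0048 (SE 0.08, 95% interval -0.19 to 0.19, adjusted p = 0.9747 in limma).

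**Figure D3:**
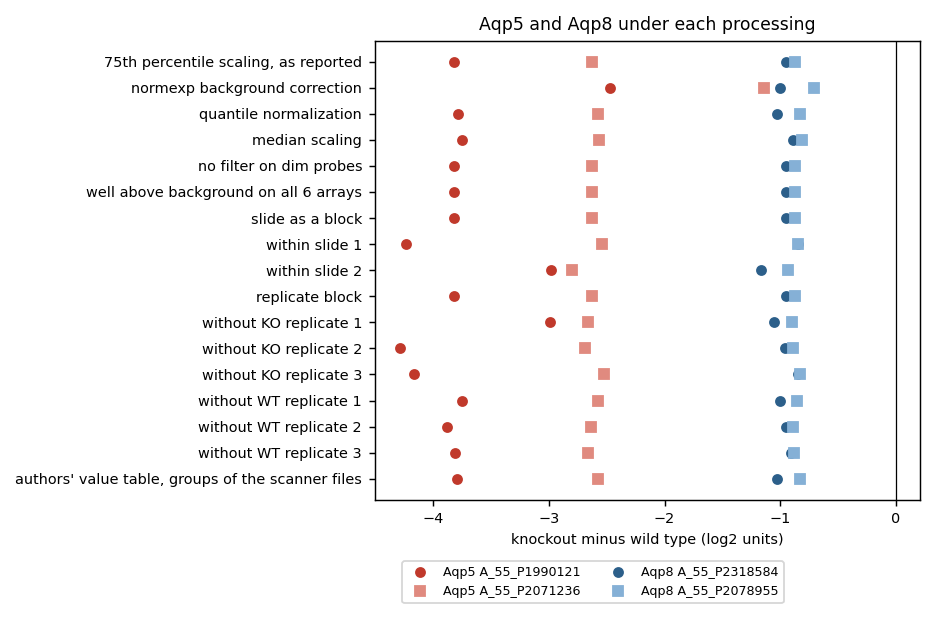
Difference between knockout and wild type (log2 units, horizontal axis) of the 2 Aqp5 and 2 Aqp8 probes under the reported processing and 16 alternatives (rows). Each point is 1 probe under 1 setting. All points lie below 0. The Aqp5 points move most under normexp (-2.47 and -1.14), and A_55_P1990121 also moves with the presence of knockout replicate 1.

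Markers of other cell types moved in the same arrays, and their part in the values of Aqp5 and Aqp8 was not tested. Levels of a list are sums of linear signal over its tested markers, relative to the array's 75th percentile. Macrophage markers were lower, at 2.55 to 2.85 in the knockouts and 4.11 to 4.56 in wild type, and 3 of 7 tested were called, Cd14 (-0.72), Cd74 (-1.11) and C1qc (-0.72). Sertoli cells nurse the germ cells and secrete the tubule fluid. Of 11 markers 2 were called lower, Sox9 (-0.64) and Gata1 (-0.51), and limma gave an unadjusted p under 0.05 to 8 lower and 0 higher, with a median of -0.43. Their sums overlapped, at 40.3 to 46 in the knockouts and 43.1 to 46.5 in wild type, but 2 of the markers were saturated. Over the other 9, looked at after these values were seen, every difference was below 0 and the sums were 12.9 to 13.9 in the knockouts and 18.4 to 20.1 in wild type. Hsd3b1 (-0.76) was the 1 called lower of 7 Leydig markers and Smtn (-0.56) the 1 called lower of 6 myoid markers, with overlapping sums in both lists. Markers of both lists moved both ways. In limma an unadjusted p under 0.05 went to 2 lower and 1 higher Leydig marker, the latter Star (0.63). Among myoid markers it went to 1 lower and 1 higher, the latter Cnn1 (0.34). Without Cyp17a1, the brightest Leydig marker with 44.8% of the sum, the Leydig sums no longer overlapped. They then ran from 9.78 upwards in the knockouts and from 12 to 15.3, all higher, in wild type. This subset was picked by the measured signals, and its 6 markers moved both ways, from -0.76 to 0.63. No direction of the Leydig list is therefore read from it. The single markers called above had adjusted p-values of 0.01 to 0.0464 in limma, and the sums were not tested. Of all 17041 tested genes, each by its brightest probe, 3.73% were called and 3.52% were called lower. Before adjustment limma gave p under 0.05 to 2309 lower and 2048 higher of these 17041 genes.

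Epithelia of the ducts are known sites of aquaporins. Of 12 epididymis markers 6 were tested and 0 called (limma; unadjusted p under 0.05 in 1 lower and 0 higher). Their sum was 5.23 to 5.96 in the knockouts and 6.35 to 6.86 in wild type, and Wfdc10 made up 92.4% of it. Without Wfdc10 the sums overlapped, at 0.436 to 0.506 and 0.421 to 0.494. Lcn5, Lcn8 and Lcn9, lipocalins that define the epididymis, were not well above background on 3 or more arrays. Of 10 simple epithelium markers 8 were tested and 0 called (limma; unadjusted p under 0.05 in 1 lower and 0 higher), with sums of 1.89 to 2.5 in the knockouts and 1.78 to 1.94 in wild type. Epcam made up 76.4% of that sum. The sums overlapped with it and also without it, then at 0.447 to 0.557 and 0.425 to 0.512. The 9 spermatid and 7 spermatocyte markers had 0 calls (limma; unadjusted p under 0.05 in 3 and 4 higher and 0 lower). Of the spermatid markers 8 were saturated on some arrays, and their 9 scaled differences of 0.21 to 0.28 were near the 0.26 that scaling added to the knockout, so no direction is read from them. Of the spermatocyte markers 1 was saturated. The other 6 had a median difference of 0.21, where the median over all tested genes was 0.05. That value is also near the shift, and the part of scaling in it was not tested. No direction is read from these 6 markers. Their sums were 18.2 to 18.9 in the knockouts and 16 to 16.4 in wild type. Spermatogonia, endothelium and blood lists had 0 calls among 7, 8 and 5 markers (limma; unadjusted p under 0.05 in 1, 1 and 3 lower and 1, 0 and 0 higher), with medians of -0.16, -0.11 and -0.61. The spermatogonia sum was 6.83 to 7.03 in the knockouts and 7.52 to 8.52 in wild type, while the endothelium sums (3.09 to 3.53 and 2.87 to 3.42) and blood sums (8.34 to 14.4 and 13.3 to 17.9) overlapped.

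Proteins that place, gate or power water movement were followed in 4 lists of 70 genes, 65 of them tested. In the knockout 7 were called lower and 0 higher (limma; unadjusted p under 0.05 in 11 lower and 3 higher). Over all tested genes 3.52% were called lower and 0.217% higher. Before adjustment 2309 lower and 2048 higher of all 17041 tested genes had p under 0.05 in limma. The median over the 65 was -0.03 and over all tested genes 0.05. With any 1 array left out, 0 or 1 of the 65 were called lower. Normexp correction and slide 1 alone gave 0 lower calls, and a term for slide gave 1.

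Among regulators and partners of aquaporins, 3 of 12 tested genes fell, 0 rose and 9 did not pass (limma; unadjusted p under 0.05 in 4 lower and 0 higher). Ezr encodes ezrin, which ties membrane proteins to actin. It read 1581, 1736 and 1837 in wild type and 934.8, 744 and 771.9 in the knockouts, with no overlap (-0.82, SE 0.10, adjusted p = 0.0154 in limma). The vasopressin receptor Avpr1a read 270.4, 278.7 and 280.3 in wild type and 179.1, 155.7 and 139.5 in the knockouts (-0.56, SE 0.09, adjusted p = 0.0392 in limma). Avpr2, another vasopressin receptor in this list, was on the array but was not tested. The ubiquitin ligase Nedd4l, which removes sodium channels from the membrane, fell by 0.42 on the log2 scale (adjusted p = 0.0446 in limma). The list's median was -0.24.

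Among transporters that move ions with water 1 of 20 fell and 0 rose (limma; unadjusted p under 0.05 in 4 lower and 1 higher; median -0.09). Atp1b2, a beta subunit of the sodium pump, read 11980, 10270 and 12490 in wild type and 6328, 5973 and 5826 in the knockouts, with no overlap (-0.68, SE 0.10, adjusted p = 0.0264 in limma). Among genes of cell volume control 2 of 16 fell and 0 rose (limma; unadjusted p under 0.05 in 2 lower and 1 higher; median -0.02). They were the kinases Sgk1 (-0.46, adjusted p = 0.0278) and Wnk4 (-0.48, adjusted p = 0.0346), both regulators of salt transport. Trpv4, a channel that responds to swelling, had a difference of -0.00065 (SE 0.08, adjusted p = 0.996 in limma).

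Among genes of glycerol, urea and osmolytes 1 of 17 fell and 0 rose (limma; unadjusted p under 0.05 in 1 lower and 1 higher). The median was 0.18. The fall was that of Gpd1, the cytosolic glycerol phosphate dehydrogenase (-0.48, SE 0.08, adjusted p = 0.0388 in limma). The testis glycerol kinases Gk2 and Gykl1 had differences of 0.27 and 0.23 (adjusted p = 0.228 and 0.245 in limma), with spots saturated on 5 and 6 of the 6 arrays. Gpd2, Pnpla2 and Akr1b3 were saturated on 6, 4 and 5 arrays, with differences of 0.22, 0.23 and 0.23. All of these are near the 0.26 that scaling added to the knockout, so no direction is read from the list's median.

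**Figure D4:**
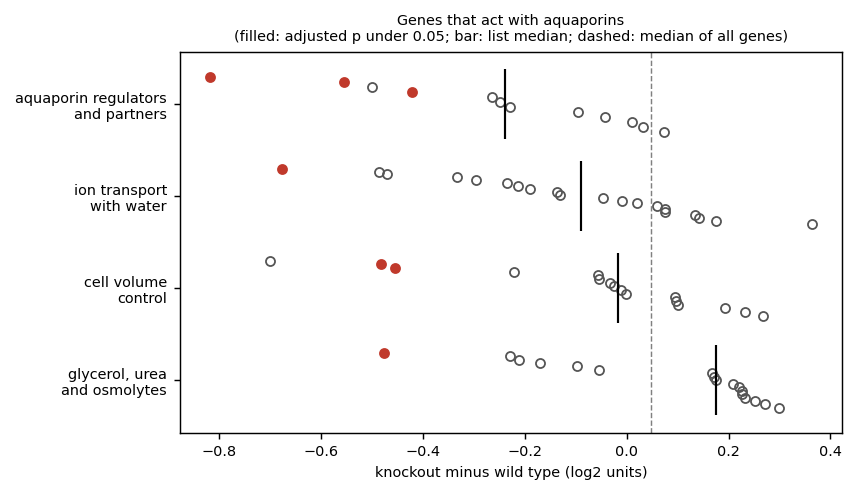
Difference between knockout and wild type (log2 units, horizontal axis) of 65 genes in 4 lists (rows). Each point is 1 gene by its brightest tested probe, sorted within its row, and is filled where adjusted p was under 0.05. The bar is the list's median and the dashed line the median of all tested genes, 0.05. The 7 filled points lie between -0.82 and -0.42, and the list medians are -0.24, -0.09, -0.02 and 0.18. Some genes, among them several in the list with the median of 0.18, had saturated spots.

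Genes whose levels followed those of Aqp5 were named by a rule, the highest Pearson correlation with A_55_P1990121 over the 6 arrays among 409 named genes that varied by an SD of at least 1 log2 unit. The second Aqp5 probe had r = 0.907 with the first. The 5 genes were Ier3 (r = 0.972), an immediate early gene, the stress-induced transcription factor Atf3 (r = 0.964), Shisa4 (r = 0.951), the growth factor binding protein Igfbp3 (r = 0.937) and Arhgef17 (r = 0.935). These correlations rest on 6 arrays that fall into 2 groups and are descriptions. Shisa4 and Arhgef17 shared the low value of knockout replicate 1. Arhgef17 read 867.2, 658.6 and 857.1 in wild type and 28.15, 293.5 and 229.4 in the knockouts, and Shisa4 727.6, 555.5 and 564 in wild type and 26.3, 208 and 172.6 in the knockouts. Shisa4 was well above background on 2 of the 3 knockout arrays, so its lowest value is near background. Igfbp3, like the second Aqp5 probe, was low to a similar degree in all 3 knockouts, at 87.6, 102.1 and 83.7 against 655, 644 and 975.8. Atf3 was well above background on 0 of the 3 knockout arrays.

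**Figure D5:**
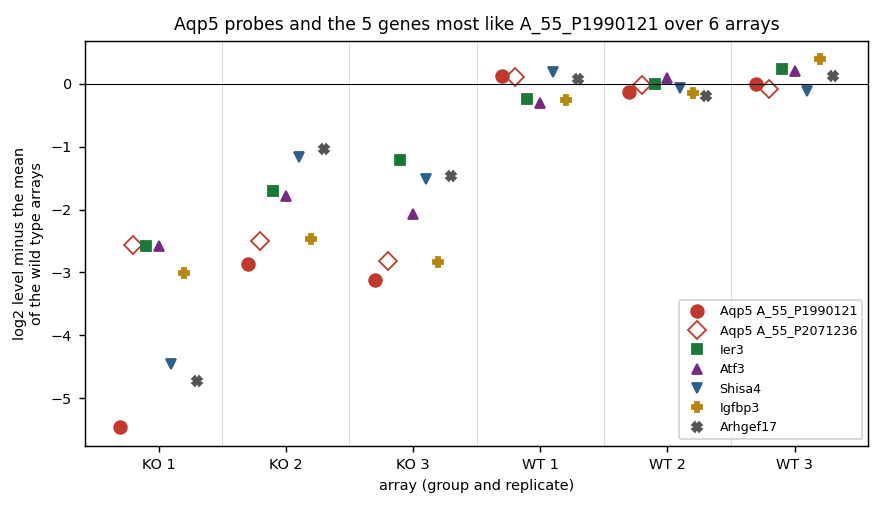
Log2 level minus the mean of the wild type arrays (vertical axis) in each array (KO 1 to 3, WT 1 to 3) for the 2 Aqp5 probes and the 5 genes with the highest correlation with A_55_P1990121. Each symbol is 1 probe, spread sideways to be seen. In KO 1, A_55_P1990121 (-5.46), Shisa4 (-4.47, near background) and Arhgef17 (-4.73) lie far below their values in KO 2 and KO 3, while A_55_P2071236 lies at -2.56.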

How the data were processed

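Whole-testis RNA of 3 TAp73 knockout and 3 wild type mice was measured on 6 arrays. Per the file headers, the authors made the scanner files with Feature Extraction 10.7.3.1. Their deposited values are linear spot intensity, and the processed signal is background-subtracted. The authors also deposited a value table of probe intensity, with columns of nearly equal distribution (medians 554 to 554.2). Its scaling is not stated in those sources, and the submitters' processing notes name limma.

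Control spots (1377 of 44397) were left out and outlier spots set to missing. Spots of a probe were averaged on the log2 scale and centred on the 75th percentile of their array. Probes well above background on at least 3 of 6 arrays, with at least 2 values per group, entered a model in limma (version 3.58.1, R 4.3.3; lmFit, eBayes, group as the only term, two-sided), with Benjamini-Hochberg adjustment. The fit was tested on simulated data. Accessions were matched to RefSeq symbols of GRCm38.p6, naming 26055 probes. A gene in a list was represented by its brightest tested probe. Named genes were every aquaporin probe, up to 3 called genes per list, and the 5 genes most like Aqp5. Members and lists were chosen with earlier results of these data known. The number of arrays limits precision. Normexp used median spot signals, since mean signals are not in the files used here. Alternatives covered background, scaling, filters, slide, replicate block, omitted arrays and the value table.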

Additional observations from a re-analysis of the deposited data

How the results depend on the processing

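Both Aqp5 and both Aqp8 probes stayed below 0 under all 16 alternatives. Aqp5 moved beyond the spread between replicates under normexp (-2.47 for A_55_P1990121 and -1.14 for A_55_P2071236; the cause was not tested) and, for A_55_P2071236, in the slide 2 pair (-2.80). With single arrays left out the 2 probes gave -4.29 to -2.995 and -2.69 to -2.53. Lower calls among aquaporin probes, 4 as reported, numbered 0 under normexp and 0 within slide 1 (limma; 3 and 4 lower at an unadjusted p under 0.05), and 2 to 4 with single arrays left out (2 without knockout replicate 2 or 3 or wild type replicate 2 or 3); higher calls were 0 throughout (limma; 1 to 3 at an unadjusted p under 0.05 in the settings with a test). Of the 15 alternatives with a test, Aqp5 A_55_P2071236 was called in 13, all but normexp and slide 1 alone. A_55_P1990121 was called in 5, and its call was lost in those settings, without a filter, with a slide or replicate block, and without any 1 array other than knockout replicate 1. Since Aqp5 was chosen for this difference, its calls describe how the result depends on processing and give the difference no support. Aqp8 and the related lists lost calls as given with their values, and the cause was not tested.

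Deviations of knockout and wild type arrays with the same replicate number had correlations of -0.025 to -0.09. They gave no sign that the numbers pair the mice, but with so few mice they cannot exclude it. With a replicate block 1 aquaporin probe was called lower, Aqp8 differences kept their size (-0.95 and -0.87, adjusted p = 0.129 and 0.0818 in limma), and 0 related genes (limma; unadjusted p under 0.05 in 12 lower and 1 higher), 9 lower and 1 higher of all probes were called.

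Over all tested probes, lower and higher calls were 838 and 79 as reported, 0 and 0 with normexp (limma; 810 lower and 1075 higher had an unadjusted p under 0.05), 0 and 0 within slide 1 (limma; 1813 and 1336), 299 and 15 with slide as a block, 349 and 13 without a filter, and 117 to 418 and 7 to 28 with single arrays left out. They were 868 and 217 with quantile normalization, 569 and 143 with median scaling, 1109 and 165 with probes well above background on all 6 arrays, and 877 and 217 with the authors' value table. Median scaling moved the median of all probes to 0.12 and normexp to 0.22. Related genes called lower were 0 with normexp (limma; unadjusted p under 0.05 in 5 lower and 1 higher), 4 with median scaling, 1 without a filter, 1 with slide as a block, 0 within slide 1 (limma; unadjusted p under 0.05 in 8 lower and 1 higher) and 0 to 1 with single arrays left out.

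Small differences that were not called changed sign, and the cause was not tested. Aqp4 A_55_P2000369 was 0.23 with normexp. Aqp4 A_55_P2031939 was 0.59 with normexp, 0.0069 with quantile normalization, 0.016 with median scaling, 0.0066 with the value table, 0.059 in the slide 2 pair, 0.019 without knockout replicate 1 and 0.01 without wild type replicate 3 (-0.12 to 0.019 with single arrays left out). Aqp7 was 0.41 with normexp, 0.018 within slide 1 and 0.0398 without knockout replicate 3 (-0.23 to 0.0398). Aqp9 was -0.13 within slide 1 and -0.041 without knockout replicate 3 (-0.041 to 0.36). Aqp11 A_55_P2177953 was -0.00064 with quantile normalization and -0.00049 with the value table. Aqp12 was -0.13 in the slide 2 pair, -0.014 without knockout replicate 2 and -0.045 without wild type replicate 3 (-0.045 to 0.049). Saturated signals limit Aqp11, and signals near background limit Aqp6 and Mip.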
